A study of Mus musculus with 12 samples.

Results

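Interferon-stimulated genes are the genes that cells switch on when interferons reach their receptors, and their level in the liver was compared between mice that had run after a meal and mice that had rested. The members were chosen by name: 39 genes were listed, and every row of the deposited table that carried one of these gene symbols was taken. The table held 38 of them among 17432 genes, and Mx1 was not analysed here. All 38 had a mean count of at least 10 over the 12 libraries and passed the filter on low counts, so that all 38 were tested among 12344 genes.

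The livers came from wild-type (WT) male C57BL/6J mice, 8 to 10 weeks old by the study's legends, with 6 Sedentary and 6 Exercise livers and 1 library each. Both groups had gone through 3 days of timed daytime feeding and of short daily acclimation to the treadmill, and both were refed on the last day until the food was removed at the start of the run. The exercised mice then ran once at 14 m/min for 3 h, while the sedentary mice did not run, and all livers were taken at the end of the run. The labels and the study's methods name no interferon, infection or drug for these mice, and the comparison addresses how a single bout of running after a meal moves the resting level of these genes. The labels number the livers within each group and say nothing about litters or cages, so a p-value measures the spread between these samples.

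Type I and type III interferons signal through receptor-bound JAK kinases to a complex that holds STAT2 and IRF9 and binds the interferon-stimulated response element. Genes that respond to interferon gamma often carry another element, the gamma-activated site. The proteins made in response sense foreign nucleic acid, cut or edit viral RNA, stall translation, trap budding particles and load peptides for T cells, and cells keep a low level of many of them without infection. In the liver both hepatocytes and the resident macrophages and endothelial cells carry interferon receptors.

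Levels are given in CPM, the count of a gene relative to the total count of its library, with the totals scaled by TMM factors. Fold changes are log2 values of Exercise against Sedentary with their standard error (SE), and adjusted p values come from the quasi-likelihood test of edgeR with the Benjamini-Hochberg adjustment over all 12344 genes, with 0.05 as the threshold. Library totals ran from 18745379 to 19324461 counts, and the biological coefficient of variation was 11.3%. No libraries were identical, and the defining transcripts of hepatocytes were abundant in every liver: the 8 hepatocyte markers summed to 116900 to 157700 CPM in the sedentary and 145500 to 166800 CPM in the exercised livers. Much of the liver transcriptome differed between the groups: 5229 of the 12344 genes passed the threshold (42.4%), of which 2626 were lower (21.3%) and 2603 higher (21.1%) after exercise. The median fold change of all genes was -0.0028. Sedentary 1, 2 and 3 stood above the other sedentary livers in most interferon-stimulated genes, as described after the single genes. Without Sedentary 1, 2 or 3 in turn, 20, 21 and 20 of the members were lower, in place of 24. Each of these fits still held the other livers of that trio. How far the fall depends on Sedentary 1, 2 and 3 together was not tested.

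Most interferon-stimulated genes were lower after exercise. Of the 38 members, 24 fell (63.2%), 1 rose and 13 did not pass the test. The median log2 fold change of the members was -0.47, with a range from -1.76 for Oasl1 to 0.67 for Oas2, and 34 of the 38 fold changes were below 0. In 11 members every exercised liver was below every sedentary liver, a pattern that 10.6% of all tested genes had. In 1 member, Oas2, every exercised liver was above every sedentary liver, a pattern that 11.7% of all tested genes had. Summed over the 38 members, the level was 710.4 to 957.3 CPM in the sedentary and 606.0 to 658.0 CPM in the exercised livers, so that the groups did not overlap. RNA of the whole liver was measured, and fewer cells of a type and less RNA per cell cannot be told apart in it.

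**Figure D1:**
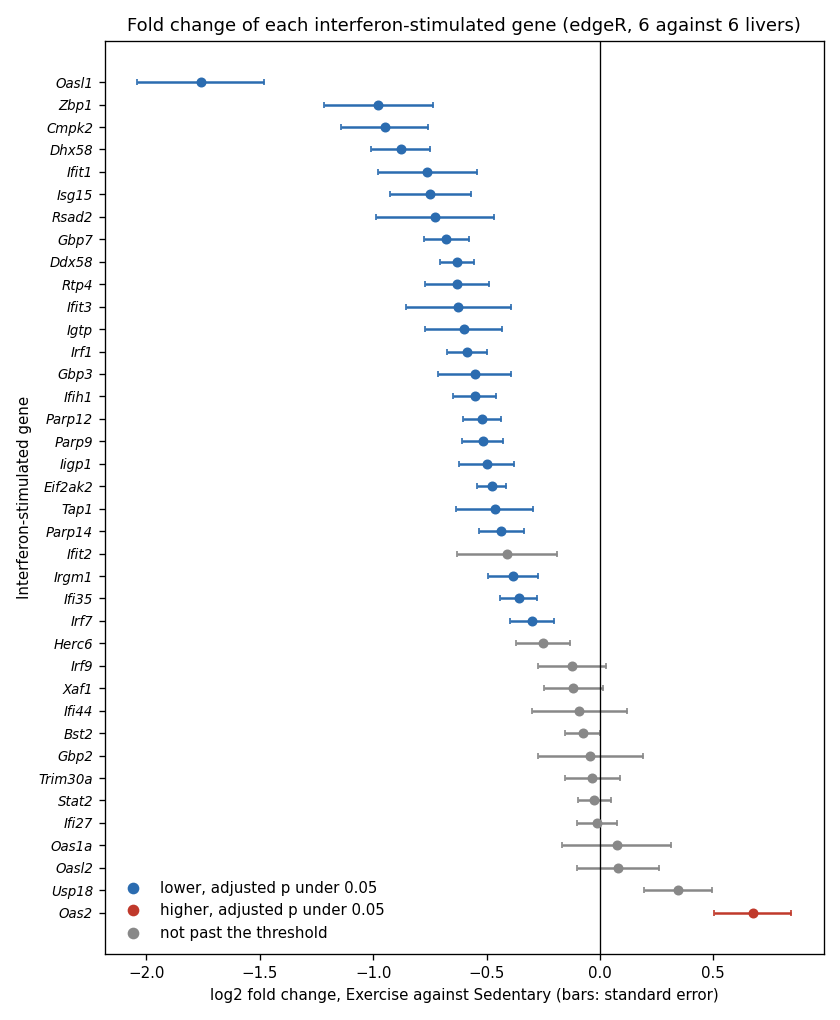
The log2 fold change of each of the 38 interferon-stimulated genes, Exercise against Sedentary, is plotted as a point on the horizontal axis with its standard error as a bar, from the lowest at the top. The 24 lowered genes run from Oasl1 at -1.76 to Irf7 at -0.30, Oas2 at 0.67 is the gene that rose, and the 13 genes not past the threshold lie between -0.41 and 0.35.

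The sequence at the start of the genes was read from the RefSeq promoter windows of GRCm38.p6, which span 250 bases before to 50 bases after a transcript start. A window was found for 29 of the 38 members, and in 24 of them its transcript start was within 10 bases of a start in the GENCODE annotation. The core of the interferon-stimulated response element, written here as GAAA, any 2 bases and GAAA again on either strand, was present in 16 of the 29 members (55.2%), against 3.99% of 27025 genes and 3.44% of all 32851 windows. The longer form, in which the core is followed by CT, was in 10 of the 29 members (34.5%) and in 0.303% of the genes. The gamma-activated site TTCNNNGAA, which reads the same on both strands, was in 8 of the 29 members (27.6%) and in 9.55% of the genes. Matches of the core overlapped each other in Isg15, Bst2, Irgm1, Gbp3 and Oas1a, and a core overlapped a gamma-activated site in Bst2.

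The stretches around the matches are printed for the 5 members with the smallest p values that hold either motif, because they show which element lies near the start of the genes whose fall was best resolved. Each is written 5′ to 3′ on the strand of the gene, the capitals mark the matches, and positions are counted with the first base of the transcript as 0. Ddx58 has a core on the opposite strand at position 2 (chr4:40239814-40239843, minus strand). Eif2ak2 has a gamma-activated site at -178 and a core at 18 (chr17:78882545-78882770, minus strand). Gbp7 has gamma-activated sites at -106 and -87 and a core at -53 (chr3:142530210-142530312, plus strand). Irf1 has a gamma-activated site at -90 and no core (chr11:53769904-53769952, plus strand), and Ifih1 has a core at 32 (chr2:62646214-62646243, minus strand).
Ddx58: tccccagcgccctgaggcagTTTCGATTTC
Eif2ak2: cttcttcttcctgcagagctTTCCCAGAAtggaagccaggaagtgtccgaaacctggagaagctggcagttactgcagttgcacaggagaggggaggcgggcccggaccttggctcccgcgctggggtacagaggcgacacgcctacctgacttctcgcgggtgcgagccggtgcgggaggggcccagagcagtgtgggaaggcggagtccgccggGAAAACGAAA
Gbp7: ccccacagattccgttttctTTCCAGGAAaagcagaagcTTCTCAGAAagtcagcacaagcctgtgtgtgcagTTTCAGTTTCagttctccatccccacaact
Irf1: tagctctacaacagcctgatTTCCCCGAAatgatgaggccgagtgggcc
Ifih1: aaagtctggagaagagaatcGAAACAGAAA
The members with a core in their window had a median log2 fold change of -0.55 and 11 of the 16 passed the test. The 13 members with a window and no core had a median of -0.36 and 7 of them passed the test. For the longer form the medians were -0.47 with it and -0.47 without it, with 6 of 10 and 12 of 19 members past the test, and for the gamma-activated site they were -0.44 and -0.47, with 5 of 8 and 13 of 21. The differences between these sets were not tested, and a match is a stretch of letters, not evidence that a factor was bound. The window of Oasl1, the member with the largest fall, held neither motif.

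All 4 RNA and DNA sensors fell, with a median log2 fold change of -0.76. DDX58, better known as RIG-I, is the helicase that binds short viral RNA with a 5′ triphosphate. Its gene (chr4:40203773-40239828, minus strand, coordinates from the GENCODE M21 annotation of GRCm38) stood at 21.3 to 28.2 CPM in the sedentary livers with a median of 25.0 CPM, and at 14.3 to 18.1 CPM in the exercised livers with a median of 16.3 CPM. The groups did not overlap, and Ddx58 fell by 0.63 on the log2 scale (SE 0.076, edgeR adjusted p = 5.09e-06), the smallest p among the members. IFIH1, or MDA5, binds long double-stranded RNA. Ifih1 (chr2:62595798-62646255, minus strand) ranged from 15.1 to 22.8 CPM with a median of 19.04 CPM at rest, and from 12.1 to 13.6 CPM with a median of 13.2 CPM after exercise. The groups did not overlap, with a fall of 0.55 (SE 0.094, edgeR adjusted p = 0.000152), and the exercised livers lay close together (coefficient of variation 4.95%, against 16.8% at rest).

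DHX58, or LGP2, is the helper helicase that tunes the other sensors. Dhx58 (chr11:100694884-100704271, minus strand) was at 7.94 to 14.3 CPM in the sedentary livers (median 10.2 CPM) and at 4.64 to 6.35 CPM in the exercised livers (median 5.71 CPM). It fell by 0.88 (SE 0.13, edgeR adjusted p = 4.79e-05) without overlap of the groups. The highest sedentary value, 14.3 CPM, was that of Sedentary 3. ZBP1 recognises nucleic acid in the left-handed Z form and starts cell death. Zbp1 ranged from 2.82 to 6.98 CPM (median 3.67 CPM) at rest and from 1.20 to 2.92 CPM (median 2.16 CPM) after exercise, a fall of 0.98 (SE 0.24, edgeR adjusted p = 0.00382), with 5 of the 6 exercised livers below every sedentary liver. For each of the other 3 sensors the exact permutation test over the 924 relabellings of the 12 livers gave a two-sided p of 0.00216, the smallest it can give, and for Zbp1 it gave 0.00433.

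**Figure D2:**
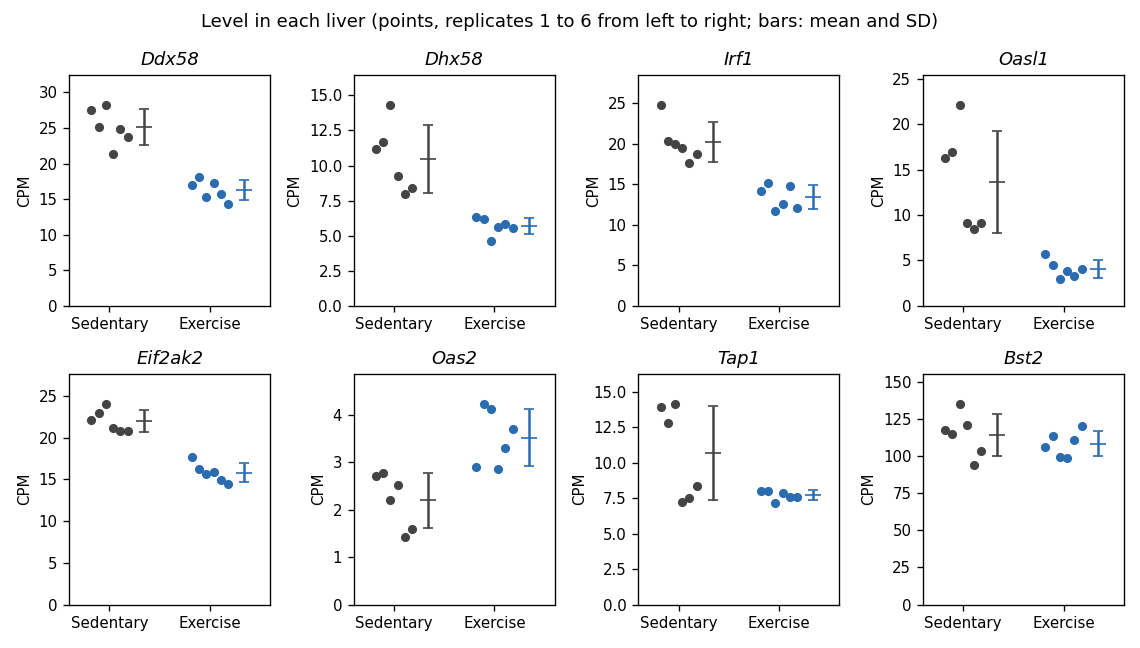
The level of 8 genes in CPM is plotted for each of the 6 Sedentary and 6 Exercise livers as points, with replicates 1 to 6 from left to right and the mean and SD as bars, each axis starting at 0. Ddx58, Dhx58, Irf1, Oasl1 and Eif2ak2 are lower in every exercised liver, Oas2 is higher in every exercised liver, Tap1 is high in 3 sedentary livers with the other 3 near the exercised ones, and Bst2 overlaps between the groups.

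Among the transcription factors, Irf1 and Irf7 fell and Stat2 and Irf9 did not pass the test. IRF1, which interferon gamma induces and which drives class I presentation and GBP genes, showed the clearest change. Irf1 (chr11:53770014-53778374, plus strand) had 17.6 to 24.8 CPM in the sedentary livers (median 19.8 CPM) and 11.7 to 15.2 CPM in the exercised livers (median 13.4 CPM). Every exercised liver was lower, and the fall was 0.59 (SE 0.088, edgeR adjusted p = 4.12e-05, exact permutation p = 0.00216). Irf1 overlaps Gm17334 on the opposite strand, and the sources used here do not state whether the counting used strand.

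IRF7 amplifies interferon production once a first wave of interferon has been made. Irf7 stood at 19.4 to 27.5 CPM (median 21.8 CPM) at rest and at 15.8 to 22.3 CPM (median 18.7 CPM) after exercise, with 4 of 6 exercised livers below every sedentary liver. It fell by 0.30 (SE 0.098, edgeR adjusted p = 0.0203), a call that ended when Sedentary 1 (0.0507), Sedentary 3 (0.0531), Exercise 4 (0.0552) or Exercise 5 (0.0543) was left out, where the numbers are the edgeR adjusted p of Irf7. STAT2 and IRF9 are parts of the factor that binds the interferon-stimulated response element. Stat2, at 54.1 to 70.4 CPM in the sedentary and 56.0 to 67.7 CPM in the exercised livers, differed by -0.025 (SE 0.072, edgeR adjusted p = 0.811). Irf9 differed by -0.12 (SE 0.15, edgeR adjusted p = 0.551), and the sedentary livers spread from 17.6 to 33.4 CPM around the exercised range of 18.2 to 26.1 CPM. The groups overlapped for both factors.

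The 2′,5′-oligoadenylate synthetase (OAS) family split in opposite directions. OASL1 is a family member without synthetase activity that represses translation of Irf7 mRNA. Oasl1 (chr5:114923240-114937915, plus strand) was measured at 16.3, 16.9, 22.1, 9.13, 8.43 and 9.09 CPM in Sedentary 1 to 6 and at 5.69, 4.44, 2.90, 3.86, 3.25 and 4.03 CPM in Exercise 1 to 6. Every exercised liver was below every sedentary liver, and the first 3 sedentary livers were well above the other 3. The mean after exercise was 29.5% of the sedentary level, a fall of 1.76 (SE 0.28, edgeR adjusted p = 0.000424, exact permutation p = 0.00216), which was the largest among the 38 members. Leaving out each library in turn gave falls between 1.57 and 1.88.

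OAS2 makes the oligoadenylates that switch on RNase L. Oas2 (chr5:120730333-120749853, minus strand) was measured at 2.70, 2.77, 2.19, 2.52, 1.41 and 1.59 CPM in Sedentary 1 to 6 and at 2.90, 4.23, 4.12, 2.87, 3.30 and 3.70 CPM in Exercise 1 to 6. No other of the 38 members passed the test in this direction, and Oas2 rose by 0.67 (SE 0.17, edgeR adjusted p = 0.00404, exact permutation p = 0.00216), and the highest sedentary liver lay just under the lowest exercised one. The rise held under every normalization, tool and omitted library tried, between 0.54 and 0.75. Oas1a and Oasl2, at 0.07 and 0.08, did not pass the test (edgeR adjusted p = 0.840 and 0.758), and their direction turned with library size alone as the scaling, to -0.023 and -0.020. Genes of this family are close in sequence, and the counts of Oas1a were not whole numbers in 11 libraries, a sign that reads were shared out between genes, while those of Oas2 and Oasl1 were whole in all 12.

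The other antiviral effectors were lower in 4 of 6 cases. EIF2AK2, or PKR, halts translation when it binds double-stranded RNA. Eif2ak2 (chr17:78852564-78882573, minus strand) had a narrow range in both groups, 20.8 to 24.1 CPM (median 21.6 CPM) at rest and 14.4 to 17.7 CPM (median 15.7 CPM) after exercise. The groups were clearly apart, and the fall of 0.48 had the smallest standard error of the called members (SE 0.064, edgeR adjusted p = 1.44e-05). The counts of Eif2ak2 were not whole numbers in 11 libraries, and its gene overlaps n-R5s29 and Gm26637 on the opposite strand. CMPK2 is a mitochondrial nucleotide kinase whose gene neighbours that of RSAD2. Cmpk2 fell by 0.95 (SE 0.19, edgeR adjusted p = 0.000698), from 2.93 to 5.91 CPM (median 4.16 CPM) to 1.80 to 2.70 CPM (median 2.18 CPM), without overlap.

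RSAD2, or viperin, makes a nucleotide that ends viral RNA chains. Rsad2 was at 2.72 to 6.00 CPM (median 4.40 CPM) in the sedentary and 1.44 to 3.72 CPM (median 2.73 CPM) in the exercised livers. Its fall of 0.73 (SE 0.26, edgeR adjusted p = 0.0373) came with overlap of the groups, as 3 of 6 exercised livers were below every sedentary liver. The call for Rsad2 was lost when Sedentary 1, 2 or 3 or Exercise 2, 3 or 5 was left out (edgeR adjusted p between 0.0721 and 0.0808) and without the filter on low counts (0.0598). RTP4, a chaperone of receptors that also limits some viruses, fell by 0.63 (SE 0.14, edgeR adjusted p = 0.00159). Rtp4 stood at 9.79 to 18.4 CPM (median 14.9 CPM) at rest and at 8.17 to 11.7 CPM (median 9.71 CPM) after exercise, with 3 of 6 exercised livers below every sedentary liver, and its gene overlaps Masp1, a gene of the lectin complement pathway, on the opposite strand. BST2, or tetherin, which holds budding virus on the cell surface, was the most abundant member per length, with a mean of 146.8 FPKM over the 12 livers, a unit that divides the count by gene length and depth. Bst2 was 93.7 to 135.1 CPM in the sedentary and 98.7 to 120.4 CPM in the exercised livers, a difference of -0.08 (SE 0.078, edgeR adjusted p = 0.457), and the groups overlapped. Trim30a also did not pass the test, at -0.033 (edgeR adjusted p = 0.856).

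Both the IFIT family, whose proteins bind foreign 5′ ends of RNA, and the ISG15 system, which attaches the ubiquitin-like ISG15 to other proteins, held genes of low level. Ifit1 was 2.68 to 6.47 CPM (median 4.38 CPM) in the sedentary and 2.21 to 3.67 CPM (median 2.53 CPM) in the exercised livers and fell by 0.76 (SE 0.22, edgeR adjusted p = 0.0129). In 5 of the 6 exercised livers it was below every sedentary liver, and the exception was Exercise 1. Sedentary 1 to 3 stood at 5.60, 5.92 and 6.47 CPM, and Sedentary 4 to 6 at 3.13, 3.15 and 2.68 CPM, near the exercised range. Ifit3 fell by 0.62 (SE 0.23, edgeR adjusted p = 0.0426), from 5.06 to 12.4 CPM (median 8.33 CPM) to 3.65 to 7.88 CPM (median 5.38 CPM), with 2 of 6 exercised livers below every sedentary liver. Its adjusted p was the largest among the 25 members past the threshold, and Ifit3 lost the call in 8 of the 12 fits that left out 1 library (Sedentary 1, 2 or 3, or Exercise 2, 3, 4, 5 or 6, with an edgeR adjusted p between 0.0677 and 0.0918). Ifit2, the least abundant member per length at a mean of 0.368 FPKM, differed by -0.41 (SE 0.22, edgeR adjusted p = 0.139), and without Exercise 1 the difference was -0.56 with an adjusted p of 0.0446. The counts of Ifit1 and Ifit3 were not whole numbers in any of the 12 libraries, as happens when reads are divided between near-identical transcripts.

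Isg15 was 2.99 to 7.29 CPM (median 4.59 CPM) at rest and 2.45 to 3.83 CPM (median 2.60 CPM) after exercise, and fell by 0.75 (SE 0.18, edgeR adjusted p = 0.00347), with 5 of 6 exercised livers below every sedentary liver. USP18, which removes ISG15 and also blocks signaling at the type I interferon receptor, went the other way without passing the test. Usp18 was 3.63 to 6.32 CPM in the sedentary and 4.90 to 7.82 CPM in the exercised livers, a difference of 0.35 (SE 0.15, edgeR adjusted p = 0.0646, exact permutation p = 0.0628). It passed without Sedentary 3 (0.45, adjusted p = 0.0191), Exercise 2 (0.40, adjusted p = 0.044) or Exercise 5 (0.41, adjusted p = 0.042). HERC6, the ligase that attaches ISG15 in the mouse, had -0.25 (SE 0.12, edgeR adjusted p = 0.0915), and Herc6 passed without Sedentary 4 (-0.32, adjusted p = 0.0295) or with library size alone as the scaling (-0.35, adjusted p = 0.0258).

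The 3 PARP genes, which encode enzymes that attach ADP-ribose to proteins, all fell by similar amounts, with a median of -0.52. Parp12 was 15.5 to 22.4 CPM (median 19.4 CPM) in the sedentary and 12.2 to 14.8 CPM (median 13.4 CPM) in the exercised livers and fell by 0.52 (SE 0.085, edgeR adjusted p = 9.35e-05). Parp14, which also acts in STAT6 signaling, fell by 0.44 (SE 0.098, edgeR adjusted p = 0.00155), from 15.4 to 23.1 CPM (median 17.2 CPM) to 11.6 to 15.0 CPM (median 13.2 CPM). The groups overlapped in neither of these genes. Parp9, whose protein pairs with DTX3L, was 30.0 to 43.6 CPM (median 37.9 CPM) at rest and 23.1 to 31.2 CPM (median 25.5 CPM) after exercise and fell by 0.52 (SE 0.091, edgeR adjusted p = 0.000204). In Parp9 5 of 6 exercised livers were below every sedentary liver, and its gene overlaps that of its partner Dtx3l on the opposite strand.

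The interferon-inducible GTPases attack the membranes around intracellular pathogens, and 5 of the 6 fell, with a median of -0.53 over the 6. Iigp1, an immunity-related GTPase with the highest CPM among the lowered members, was 106.9 to 180.1 CPM (median 146 CPM) in the sedentary and 90.6 to 125 CPM (median 100.9 CPM) in the exercised livers. It fell by 0.50 (SE 0.12, edgeR adjusted p = 0.00491), with 4 of 6 exercised livers below every sedentary liver. Igtp, a regulator of the same GTPase group, was 22.4 to 43.8 CPM (median 28.2 CPM) at rest and 17.0 to 22.5 CPM (median 20.2 CPM) after exercise, a fall of 0.60 (SE 0.17, edgeR adjusted p = 0.0117). Irgm1, the regulator that also guides autophagy, fell by 0.39 (SE 0.11, edgeR adjusted p = 0.0105), from 34.3 to 51.7 CPM (median 36.6 CPM) to 27.3 to 34.4 CPM (median 31.9 CPM). Igtp and Irgm1 each had 5 of 6 exercised livers below every sedentary liver. The counts of Iigp1, Igtp and Irgm1 were not whole numbers in any library, and Igtp overlaps Irgm2 on the same strand, so these values are uncertain to the extent that reads were divided between relatives.

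Of the guanylate-binding proteins, Gbp7 and Gbp3 fell and Gbp2 did not pass the test. Gbp7 (chr3:142530342-142550149, plus strand) stood at 6.68 to 8.61 CPM (median 7.30 CPM) in the sedentary and 4.05 to 5.47 CPM (median 4.50 CPM) in the exercised livers. It fell by 0.68 (SE 0.10, edgeR adjusted p = 3.72e-05), and its groups did not overlap. The counts of Gbp7 were not whole numbers in 11 libraries, and its gene overlaps the pseudogene Gm43802 on the same strand. Gbp3 was 2.23 to 3.50 CPM (median 2.57 CPM) at rest and 1.43 to 2.56 CPM (median 1.81 CPM) after exercise, a fall of 0.55 (SE 0.16, edgeR adjusted p = 0.0115) with 5 of 6 exercised livers below every sedentary liver. Gbp2 varied widely in both groups, from 1.52 to 5.10 CPM at rest and from 2.15 to 4.39 CPM after exercise, and differed by -0.042 (SE 0.23, edgeR adjusted p = 0.902).

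Among the remaining members, Ifi35 and Tap1 fell. IFI35 is a partner of the protein NMI, and Ifi35 went from 18.98 to 25.7 CPM (median 20.7 CPM) to 15.2 to 18.7 CPM (median 16.9 CPM). Its groups did not overlap, and the fall was 0.36 (SE 0.082, edgeR adjusted p = 0.00179). TAP1 carries peptides into the endoplasmic reticulum for loading on class I molecules. Tap1 was measured at 13.95, 12.8, 14.2, 7.21, 7.50 and 8.34 CPM in Sedentary 1 to 6 and at 8.04, 8.04, 7.19, 7.88, 7.62 and 7.62 CPM in Exercise 1 to 6. The exercised livers were within a narrow band, 3 sedentary livers were far above it, and the other 3 were inside or close to it. The counts of Tap1 were not whole numbers in any library, and its gene overlaps Psmb9 on the opposite strand. The fall of 0.47 (SE 0.17, edgeR adjusted p = 0.0397) was not matched by the exact permutation test (p = 0.106), limma-voom gave Tap1 an adjusted p of 0.0678, and the edgeR call was lost when Sedentary 1, 2 or 3 or any 1 of the exercised livers was left out (adjusted p between 0.0608 and 0.0884). Xaf1, a gene tied to cell death, at -0.12 (SE 0.13, edgeR adjusted p = 0.488), the mitochondrial Ifi27 at -0.014 (SE 0.087, edgeR adjusted p = 0.913) and Ifi44 at -0.09 (SE 0.21, edgeR adjusted p = 0.767) did not pass the test. Ifi27, with a mean of 51.4 FPKM, and Stat2, with 14.2 FPKM, came after Bst2 as the most abundant per length of the 13 members not past the threshold.

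**Figure D3:**
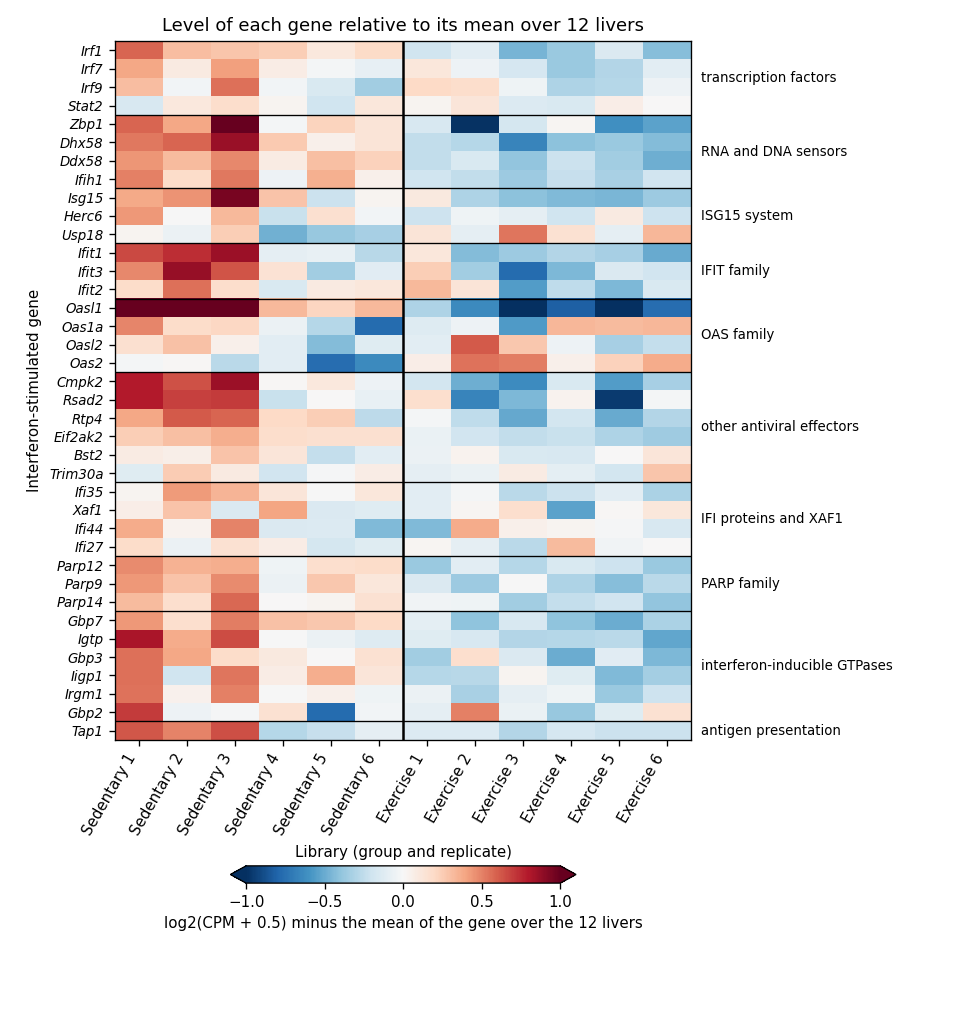
Each row is 1 of the 38 genes and each column 1 of the 12 livers, and the colour gives log2(CPM + 0.5) minus the mean of that gene over the 12 livers, from -1 (blue) to 1 (red), with genes grouped by role. Sedentary 1, 2 and 3 are the reddest columns, the exercised columns are mostly blue, and Oas2 is red in the exercised livers.

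The median coefficient of variation of the 38 members was 19.8% at rest and 13.8% after exercise, against 11.6% and 10.2% over all tested genes, and 30 of the 38 members varied more at rest, as did 59.0% of all tested genes. The members and all tested genes were not matched for level, and counting error adds to the spread of genes of a few CPM. Sedentary 1, 2 and 3 were the 3 highest sedentary livers in 25 of the 38 members (65.8%). The same 3 livers were the highest sedentary ones in 8.55% of all tested genes, and over the 20 possible trios this share ran from 2.59% to 9.01%. Sedentary 3 was the highest sedentary liver in 19 members, Sedentary 1 in 11 and Sedentary 2 in 7.

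The mean deviation of the 24 lowered genes from their mean over all livers, on the log2(CPM + 0.5) scale, was 0.53, 0.41 and 0.62 in Sedentary 1, 2 and 3 and 0.07, 0.08 and 0.05 in Sedentary 4, 5 and 6. In Exercise 1 to 6 it was -0.11, -0.28, -0.36, -0.27, -0.38 and -0.35. All 6 sedentary livers thus lay above all 6 exercised livers in this mean, as the choice of lowered genes makes likely, with Sedentary 4 to 6 in the middle and Exercise 1 as the highest exercised liver. In 12 of the 24 lowered genes each of Sedentary 4 to 6 was above each exercised liver. These genes were chosen as lowered in the same livers, and the share of all tested genes with this pattern was not computed. The count is therefore no support for a fall apart from Sedentary 1 to 3. The 13 genes not past the threshold showed 0.21, 0.12 and 0.20 in Sedentary 1 to 3, -0.05, -0.21 and -0.16 in Sedentary 4 to 6 and values between -0.10 and 0.13 in the exercised livers, so that Sedentary 1 to 3 stood high in them too. The labels give no batch, litter or time of sampling that separates these livers, and what sets Sedentary 1 to 3 apart was not tested.

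**Figure D4:**
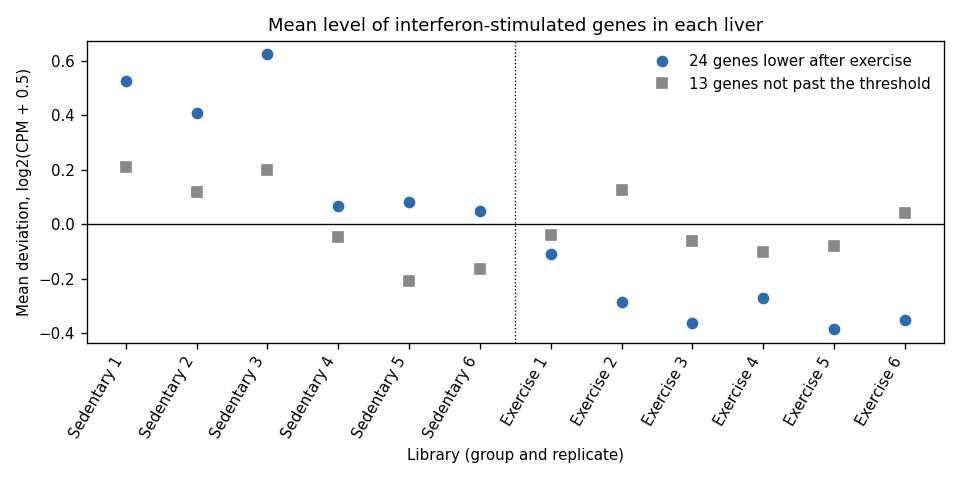
For each liver on the horizontal axis, the vertical axis gives the mean deviation of log2(CPM + 0.5) from the mean of each gene over the 12 livers, as circles for the 24 lowered genes and squares for the 13 genes not past the threshold. The circles are at 0.41 to 0.62 in Sedentary 1 to 3, at 0.05 to 0.08 in Sedentary 4 to 6 and at -0.38 to -0.11 in the exercised livers.

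A further list of interferon-stimulated genes, written from general knowledge and sharing no gene with the members, also held more genes that fell than rose. Of 64 genes tested, 30 fell (46.9%), 4 rose and the median was -0.21. Of all tested genes 21.3% fell and 21.1% rose. The fall was clearest in Parp10, another ADP-ribosyltransferase, with 12.9 ± 2.2 CPM (SD, n = 6) at rest and 6.72 ± 0.476 CPM (SD, n = 6) after exercise (log2 fold change -0.94, SE 0.10, edgeR adjusted p = 1.78e-06). Znfx1, a helicase that binds viral RNA at mitochondria, had -0.75 (SE 0.087), and Helz2, a helicase that serves as a nuclear receptor coactivator, had -0.63 (SE 0.078). The GTPase gene Ifi47 had -0.91 (SE 0.13), and Lgals3bp, which encodes a secreted glycoprotein, had -0.57 (SE 0.083). In all 5 genes every exercised liver was below every sedentary liver.

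Genes of interferon signaling went in both directions. Of 31 tested, 5 fell and 6 rose (35.5% together, under the 42.4% of all genes), with a median of 0.038. Ikbke, the kinase that activates IRF3 and IRF7, fell by 0.69 (SE 0.066, edgeR adjusted p = 4.3e-07) and Tlr3, the endosomal receptor of double-stranded RNA, fell by 0.45 (SE 0.11, edgeR adjusted p = 0.00397). Irf2bp2, a corepressor that binds IRF2, rose by 1.18 (SE 0.10, edgeR adjusted p = 4.35e-07). Irf2, a factor that competes with IRF1 for the same element, rose by 0.55 (SE 0.073, edgeR adjusted p = 1.43e-05), and the adaptor gene Myd88 rose by 0.36 (SE 0.073, edgeR adjusted p = 0.000668). The type I receptor genes are added here after their values were seen: Ifnar1 (edgeR adjusted p = 0.65) and Ifnar2 (edgeR adjusted p = 0.96) did not pass the test. Of 21 interferon genes looked for, Ifng and Ifnz were in the table, neither reached the filter on low counts, and the highest value of either in any liver was 0.111 CPM. Whether interferon itself differed between the groups was not detectable at this depth.

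Class I antigen presentation moved in both directions, with 7 of 23 genes lower, 4 higher (47.8% together, beside the 42.4% of all genes) and a median of -0.09. Nlrc5, the activator of class I genes, fell by 0.52 (SE 0.094, edgeR adjusted p = 0.000271), and Psmb10, a subunit of the immunoproteasome, fell by 0.32 (SE 0.066, edgeR adjusted p = 0.00091). The nonclassical class I genes H2-Q4 and H2-Q6 fell by 0.36 (SE 0.071) and 0.81 (SE 0.16), and as members of a family of near-identical genes their counts are uncertain. Canx, a general chaperone of the endoplasmic reticulum, rose by 0.40 (SE 0.065, edgeR adjusted p = 0.000113). The abundant genes B2m, H2-D1 and H2-K1 are added here after their values were seen, and none of them fell. B2m rose by 0.17 (SE 0.055, edgeR adjusted p = 0.0211) and H2-D1 by 0.15 (SE 0.058, edgeR adjusted p = 0.0468). H2-K1 differed by 0.10 (SE 0.057, edgeR adjusted p = 0.15) and did not pass the test.

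**Figure D5:**
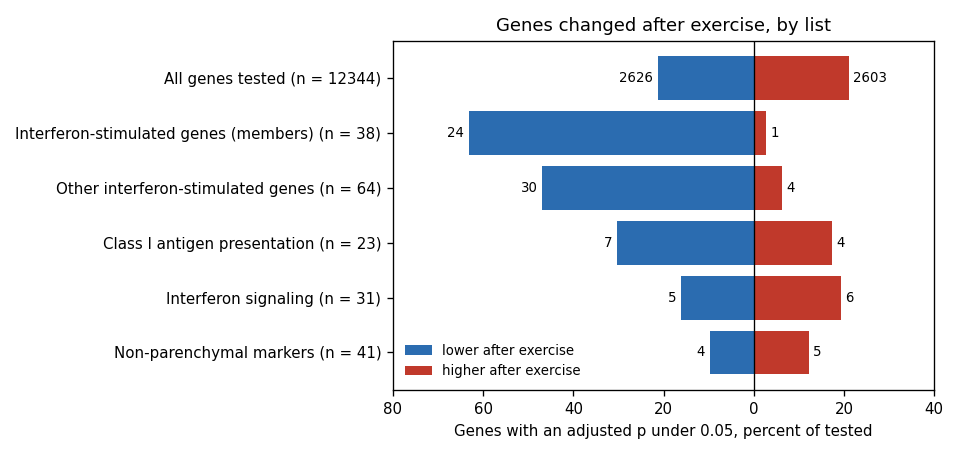
For each list, the bar to the left gives the percent of tested genes that were lower after exercise and the bar to the right the percent that were higher, with the number of genes beside each bar. The interferon-stimulated genes have 24 lower and 1 higher of 38, the further interferon-stimulated genes 30 and 4 of 64, class I presentation 7 and 4 of 23, interferon signaling 5 and 6 of 31, the markers of non-parenchymal cells 4 and 5 of 41, and all tested genes 2626 and 2603 of 12344.

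Markers of the other cell types of the liver were measured beside the members, because resident and passing immune cells also express interferon-stimulated genes. Of 62 markers of non-parenchymal cells, 41 were tested, 4 fell and 5 rose, together a smaller share than the 42.4% of all tested genes. With calls this common among all genes, a few called markers do not by themselves show a change in a cell type. None of the 10 markers of Kupffer cells and macrophages passed the test with edgeR, DESeq2 or limma-voom, and none had an unadjusted p under 0.05 in edgeR, with a sum of 118.3 to 196.6 CPM at rest and 140.6 to 214 CPM after exercise. Of the 10 endothelial markers, 1 fell and 3 rose, and they summed to 211.4 to 302.5 CPM and 238.1 to 368 CPM. Lyve1 rose by 1.18 (SE 0.24), Pecam1 by 0.49 (SE 0.099) and Oit3 by 0.55 (SE 0.18), the last of which lost its call without Sedentary 1, 3 or 5 or Exercise 2, 4, 5 or 6 (edgeR adjusted p of Oit3 between 0.0503 and 0.0579). The 10 markers of T and NK cells were near the limit of counting, with 9 of the 10 under a mean of 10 counts and sums of 3.43 to 5.49 CPM and 3.37 to 6.09 CPM.

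The 6 B cell markers summed to 1.85 to 3.39 CPM at rest and 0.627 to 2.20 CPM after exercise, and of the 2 tested 1 fell. The 6 neutrophil markers summed to 4.03 to 6.11 CPM and 3.83 to 7.19 CPM, and none of the 3 tested passed with edgeR, DESeq2 or limma-voom or had an unadjusted p under 0.05 in edgeR. Both dendritic cell markers that were tested rose with edgeR and limma-voom and 1 of the 2 with DESeq2, among them Clec9a by 0.78 (SE 0.15, edgeR adjusted p = 0.000447), and the 6 markers summed to 3.06 to 4.34 CPM and 4.96 to 6.53 CPM. Of the 8 stellate cell and fibroblast markers 2 fell, with sums of 169.4 to 230 CPM and 155.8 to 228.8 CPM; Des had -0.41 (SE 0.13, edgeR adjusted p = 0.0206) and lost the call without Sedentary 1 (adjusted p = 0.0588) or Exercise 3 (adjusted p = 0.0503). None of the 5 cholangiocyte markers tested passed with edgeR, DESeq2 or limma-voom or had an unadjusted p under 0.05 in edgeR. The part of cell composition in the fall of the interferon-stimulated genes was not tested.

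The ratio of the deposited FPKM to the count moves when another effective length is given to a gene. Its shift between the groups was taken relative to the median shift of the 11482 genes with such a ratio. On the log2 scale this relative shift was at most 0.08 in any of the 38 members. The ratio also varied within groups: for Zbp1 its log2 ran from -4.7 to -4.26 at rest and from -4.71 to -4.16 after exercise. With library size alone as the scaling, the median of all genes moved to -0.10 and that of the members to -0.57, with 25 lower and 1 higher.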

How the data were processed

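Liver RNA of 6 Sedentary and 6 Exercise mice was extracted with TRI Reagent and made into mRNA libraries with a BGI kit, per the labels. The authors deposited an expected count and an FPKM value per gene and library. The submitters' processing notes name Bowtie2 2.3.4.3, RSEM 1.3.1 and mm10. The annotation and the use of strand are not given in the sources used here. The deposited expected counts carry no scaling for depth, and RSEM's division of reads left 31.3% of the values with a fraction. The authors' FPKM values are scaled for length and depth.

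Groups came from the labels. The counts were rounded and tested for all genes at once with edgeR 4.0.16 in R 4.3.3: filterByExpr with a minimum count of 10, TMM factors, a robust quasi-likelihood fit with exercise as the only term, and Benjamini-Hochberg adjustment over 12344 genes. The test was checked on simulated counts. The exact permutation test (two-sided, 924 relabellings, numpy 2.4.6) used mean log2(CPM + 0.5), and its smallest p is 0.00216. Totals of 18745379 to 19324461 counts give small counting errors beside the spread between livers, except for genes of a few CPM. Library pairs within a group differed by a chi-square per gene of 7.53 to 42.1, and 0 pairs were identical.

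The members and all gene lists were chosen with earlier results of these data known, the lists from general knowledge, so no count over them is independent support. Group ranges are given for up to 24 members past the threshold in order of p, and Ifit3, the next in that order, was added. Of the members not past it, the 5 of largest absolute fold change and the 3 of largest mean FPKM are named by rule and the others are added for completeness. From each other list up to 5 genes of smallest p are named, beside genes marked as added after their values were seen. Promoter stretches are shown for up to 5 members. Coordinates of genes come from the GENCODE M21 annotation of GRCm38, which has the chromosome sequences of mm10. Alternatives were RLE, upper quartile and no scaling factors, 2 other filters, DESeq2 1.42.0, limma 3.58.1 (voom, and log2(FPKM + 0.1)), the replicate number as a block, a threshold of 0.01 and leaving out each library.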

Additional observations from a re-analysis of the deposited data

Results flagged for a closer look

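Of 116 groups of 6 livers checked for a library far from the others, 5 had one, and chance gives about 1 in 20, or 5.8. Each of the 5 was the highest liver of its group. Exercise replicate 1 stood apart in Isg15 (3.83 CPM, next 2.77 CPM), in Ifit1 (3.67 CPM, next 2.64 CPM) and in Znfx1 (22.3 CPM, next 18.5 CPM), so that in these genes the exercised liver nearest to the sedentary group was the same one. Without Exercise replicate 1, 25 of the 38 interferon-stimulated genes passed the threshold, 24 of them lower, with a median log2 fold change of -0.49. Exercise replicate 5 stood apart in the immunoproteasome gene Psmb10 (21.0 CPM, next 19.6 CPM), and Sedentary replicate 6 in the endothelial gene Pecam1 (14.1 CPM, next 12.2 CPM). What sets these libraries apart in these genes was not tested.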

How the results depend on the processing

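Over the other scalings, filters, tools and the replicate block, 22 to 26 of the 38 interferon-stimulated genes passed the threshold, and 17 passed at an adjusted p under 0.01. Leaving out 1 library gave 20 to 25 lower and 1 to 2 higher members, with medians between -0.51 and -0.42. With the replicate number as a block 23 were lower and 2 higher (Oas2 and Usp18); Ifit3 lost its call (adjusted p = 0.0799), and 4956 genes passed in all. The numbers do not pair the livers: same-numbered deviations correlated between -0.0926 and 0.159, and in 1 of 6 pairs the livers correlated best with their own number. Scaling shifted the split of all genes: 3735 lower and 1767 higher with library size alone, 3713 and 1711 with limma on FPKM, where the medians of all genes were -0.10 and -0.09. At an adjusted p under 0.01, 7 signaling genes, 7 class I genes and 3 non-parenchymal markers passed, the last between 4 and 12 (9 with all libraries) when 1 library was left out. The longer response element was in 34.5% of members with a window. The fold change turned its sign in 7 members that never passed the test. Library size alone and limma on FPKM gave Oas1a -0.023 and -0.033 and Oasl2 -0.020 and -0.034, and limma-voom gave Gbp2 0.00386. Over the 12 fits without 1 library, Stat2 ranged from -0.061 to 0.0085, Ifi27 from -0.083 to 0.039, Ifi44 from -0.21 to 0.041, Oas1a from -0.072 to 0.22, Oasl2 from -0.086 to 0.16, Gbp2 from -0.18 to 0.16 and Trim30a from -0.099 to 0.026. The causes were not tested. Of 798 single-member fits, 737 kept direction and side of the threshold. Counts of a few CPM limit the precision for Ifit2, Oas1a, Ifi44 and Gbp2. The same limit holds for called members of like level, among them Oas2, Gbp3, Cmpk2 and Zbp1.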
